A study of Mus musculus with 2 samples.

Results

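Haem is made in a series of enzymatic steps that begin and end in the mitochondrion, and 9 genes tied to that pathway were read here in CMP (common myeloid progenitors) of the mouse, marrow cells that can still give rise to the red cell, platelet, granulocyte and monocyte lineages. The genes are Alas1, Alas2, Alad, Uros, Urod, Cpox, Ppox, Fech and Hmox1. They were chosen by symbol as the enzymes of the pathway and found by their gene identifiers, all 9 of them, among 43346 mouse genes in each deposited table. The last of them, Hmox1, breaks haem down, so the set holds 8 genes of synthesis and 1 of breakdown. Both libraries of the series belong to the same group: total RNA over 200 nucleotides from a pool of 100 primary CMP of male C57BL/6J mice aged 5 to 6 weeks, untreated as far as the labels say. The labels call them biological replicates 1 and 2, with separate biosamples and 1 donor identifier. There is no other cell type or treatment, so levels are described within CMP and between the 2 libraries, and a p-value here describes these libraries alone. With 2 libraries, fewer cells of a type in a pool and less RNA per cell cannot be told apart.

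In the pathway, glycine and succinyl-CoA are joined by 5-aminolevulinate synthase, which has a form in all tissues (Alas1) and a form of the red cell lineage encoded on the X chromosome (Alas2). Cytosolic enzymes then build a ring from the product, the last steps oxidise that ring in the mitochondrion, and ferrochelatase inserts iron. In red cell precursors the demand is for haemoglobin, whereas other cells need haem for cytochromes, catalase and peroxidases, among them the myeloperoxidase of granulocyte precursors. Several genes of the pathway are known to have separate first exons for general and for erythroid use.

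Depth was 28916263 expected counts (estimated reads per gene) in replicate 1 and 26426710 in replicate 2, of which the 9 genes took 8457 and 8333. A count of 0 allows up to 0.104 counts per 1000000 in replicate 1 and 0.114 in replicate 2, from 3 counts over the depth, and such limits cover counting error only because the reads carry no molecular identifiers. Levels are given as TPM, transcripts per 1000000, which corrects for transcript length, and a gene is called detected where both libraries reach 1 TPM. Of surface markers in general use for CMP, the receptor gene Kit stood at 98.1 and 93.0 TPM and Cd34 at 74.5 and 55.4 TPM, while Ly6a and Il7r, which mark earlier and lymphoid progenitors, had 0 counts in both libraries. Fcgr2b and Fcgr3 stood at 2.48 and 0.640 TPM in replicate 1 and at 9.59 and 4.27 TPM in replicate 2.

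The start regions of the genes at opposite ends of the range of counts, Alas2 and Cpox, are shown first. The same short word stands near the start of Alas2, with no reads, and of Cpox, with the most reads in the set. By mean TPM Urod and Alad stood above Cpox. Sequences and positions are from RefSeq on GRCm38.p6 (the mm10 build of the deposited files), read 5′ to 3′ on the gene's strand. Start windows were searched for 7 of the 9 genes, with 10 windows of 300 bases (250 before and 50 after the start). No window of Fech or Hmox1 was searched, so nothing is said of words near their starts. Capitals mark the searched words that fall whole within a printed stretch. The words were GATAA, the core read by GATA factors, the 10-base palindrome read by the factor NRF1 (its letters are the capitals in the Alas1 line), and CCNCNCCC, a word of KLF factors, each on both strands. The Alas2 stretch is chrX:150547167-150547374 (plus strand), the Cpox stretch chr16:58669958-58670207 (plus strand), the Alas1 stretch chr9:106247906-106247935 (minus strand) and the Uros stretch chr7:133702551-133702580 (minus strand). The Alas2 and Cpox stretches lie upstream of the annotated exons, and the shorter Alas1 and Uros stretches, 30 bases each, lie within annotated first exons.
Alas2: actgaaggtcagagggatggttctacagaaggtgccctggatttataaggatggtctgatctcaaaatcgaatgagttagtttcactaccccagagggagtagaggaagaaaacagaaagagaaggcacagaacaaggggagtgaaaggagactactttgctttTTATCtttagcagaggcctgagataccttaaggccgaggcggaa
Cpox: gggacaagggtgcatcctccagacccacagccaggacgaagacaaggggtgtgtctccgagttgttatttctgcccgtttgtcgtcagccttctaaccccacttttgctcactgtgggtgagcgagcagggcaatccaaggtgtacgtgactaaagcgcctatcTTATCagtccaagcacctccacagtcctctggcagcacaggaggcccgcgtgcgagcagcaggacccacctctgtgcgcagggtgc
Alas1: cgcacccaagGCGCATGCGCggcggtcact
Uros, downstream start: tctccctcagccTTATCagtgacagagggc
GATAA stood, as its reverse complement TTATC, with its first base 86 bases before the RefSeq start of Alas2 and 86 before that of Cpox. For Uros it stood 68 bases before the downstream RefSeq start. A second copy in the Cpox window began at base 5 from the RefSeq start and is not printed. That RefSeq start, 58670208, and the second copy both lie upstream of the start of the listed transcript Cpox-201 at 58670292. The RefSeq start of Alas2, 150547417, lies downstream of the start of Alas2-201 at 150547375. No window of Alas1, Alad, Urod or Ppox held the word, nor did the upstream Uros window. Of all 32851 start windows, 25.4% held GATAA, 49.5% held CCNCNCCC and 0.971% held the NRF1 palindrome, which was found for Alas1. CCNCNCCC occurred in 9 of the 10 windows, and matches that overlap each other were counted separately. There were 4 matches for Alas2 and in an Alad window, and 2 in the other Alad window and in both Alas1 windows. Cpox, Ppox, Urod and the upstream Uros start had 1. The Alad windows overlap, and the 2 matches of the second are the same bases as 2 of the 4 in the first. The Alas1 windows overlap as well. The CCNCNCCC matches of Alas2 and Cpox lie outside the printed stretches. All words found are matches of letters, not sites shown to be bound.

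Of the genes for the first enzyme, Alas1 was read and Alas2 was not. Alas1 (chromosome 9, 106233455 to 106248654, minus strand, GRCm38), the general form of the first and rate-limiting enzyme, had 386 counts in replicate 1 and 620 in replicate 2. That is 9.69 and 20.7 TPM, a mean of 15.2 ± 7.79 (SD, n = 2). Alas2 (chromosome X, 150547375 to 150570638, plus strand), the erythroid form, had 0 counts in both libraries, and 3 counts would have been 0.133 TPM in replicate 1 and 0.135 in replicate 2. On that floor of 3 counts per library, Alas1 was at least 73.0-fold higher than Alas2 in replicate 1 and at least 153-fold higher in replicate 2. The deposited credibility bounds of Alas2 reached higher than that floor, to 0.657 and 0.674 TPM, and against those the fold is smaller. Reads of these genes can be told apart: none of the 2034 distinct 31-base words of Alas2 coding transcripts occurred in Alas1 or in another gene. Apex2, a DNA repair gene on the opposite strand that spans all of Alas2, had 231 and 555 counts. Zeros on a single side were not rare: among 11716 genes that reached 50 counts in at least 1 library, 367 were at 0 in the other.

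The cytosolic steps were read at higher and at lower levels. Alad (chromosome 4, 62509169 to 62519918, minus strand), which joins pairs of 5-aminolevulinate into porphobilinogen, had 985 and 1080 counts, or 43.3 and 47.1 TPM (45.2 ± 2.72). Those values lie close together and place Alad at percentiles 85.3 and 86.7 of the detected protein-coding genes. Uros (chromosome 7, 133686243 to 133710072, minus strand), which closes a linear precursor into a ring, had 283 counts in replicate 1 and 689 in replicate 2, or 8.20 and 26.3 TPM (17.2 ± 12.8). It was low in replicate 1, at percentile 33.3 of detected genes, and well up in replicate 2, at percentile 72.9. Urod (chromosome 4, 116989965 to 116994413, minus strand), which removes carboxyl groups from the ring, had 831 and 1265 counts, or 41.5 and 81.4 TPM (61.5 ± 28.3).

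The mitochondrial steps did not fall into a common level either. Cpox (chromosome 16, 58670292 to 58717636, plus strand), the coproporphyrinogen oxidase, held 41.6% (replicate 1) and 23.5% (replicate 2) of all reads given to the 9 genes, with 3518 and 1956 counts. Its level was 56.3 and 31.6 TPM (43.9 ± 17.5). Ppox (chromosome 1, 171275990 to 171281186, minus strand), the protoporphyrinogen oxidase, had 1549 and 1623 counts, which are nearly alike, but 52.8 and 28.3 TPM (40.5 ± 17.3), which are not. Fech (chromosome 18, 64452914 to 64490251, minus strand), the ferrochelatase, had 905 and 1027 counts, or 16.0 and 18.3 TPM (17.1 ± 1.63), the smallest SD among the detected members. Hmox1 (chromosome 8, 75093621 to 75100589, plus strand), the inducible haem oxygenase that opens the ring, had 0 counts in replicate 1 and 73 in replicate 2, where it reached 2.47 TPM. Its 3-count limit in replicate 1 was 0.178 TPM.

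**Figure D1:**
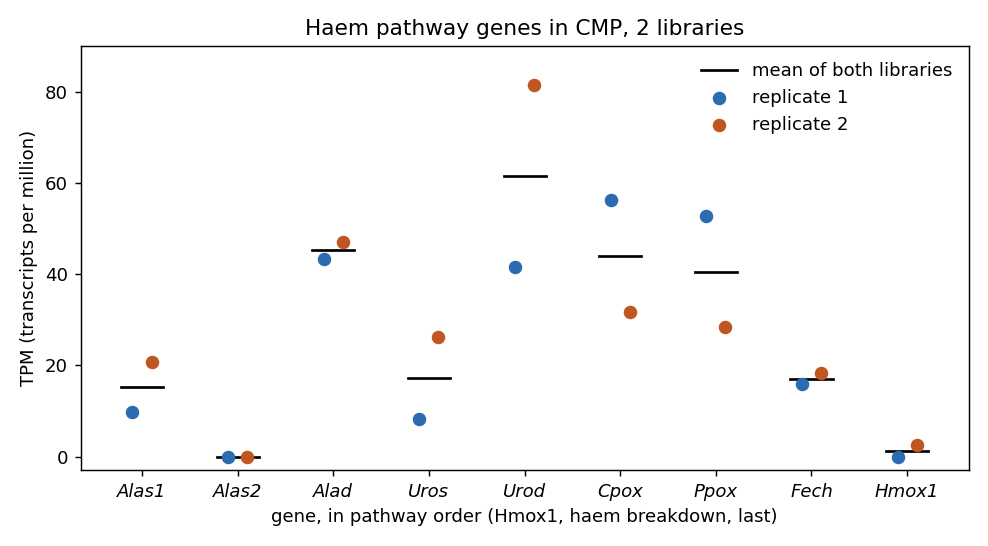
TPM (vertical axis, linear) of the 9 genes in pathway order, with Hmox1 last; each point is 1 library and each bar the mean of both. Alad and Fech have points close together, Urod and Uros are higher in replicate 2, Cpox and Ppox are higher in replicate 1, and Alas2 is at 0 in both.

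By this rule 7 of the 9 genes were detected in both libraries, where 44.9% of all 21474 protein-coding genes were. The undetected ones were Alas2, at 0 in both libraries, and Hmox1, detected in replicate 2 alone. By mean level the order was Urod, Alad, Cpox, Ppox, Uros, Fech, Alas1, Hmox1 and Alas2. The ranges over the libraries overlapped between each of the first 4 and its neighbour in that order, and likewise among Uros, Fech and Alas1. Ppox stood wholly above Uros, and Alas1 wholly above Hmox1. Of the 36 pairs of members, 26 had TPM ranges that did not overlap, and of the 21 pairs among the detected members 12 did so. Over all pairs of detected protein-coding genes 80.3% of ranges did not overlap. With 2 libraries a two-sided exact sign-flip test cannot go below 0.5, so the order is a description with no p. The first enzyme, Alas1, had the lowest mean of the 7 detected genes, at rank 6 in each library.

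Between the libraries, 6 of the 8 members that reached 10 counts differed beyond counting noise (two-sided exact binomial test on TMM-scaled rounded counts, adjusted p under 0.05 by Benjamini-Hochberg over 13616 genes). The share over all genes tested was 77.9%, so the members' count is near the background. Alas1, Uros, Urod, Fech and Hmox1 were higher in replicate 2, and Cpox was higher in replicate 1. Uros was 2.39-fold higher in replicate 2 (95% counting interval 2.08 to 2.76, exact binomial adjusted p = 7.15e-37). Alas1 was 1.58-fold higher (1.39 to 1.80, exact binomial adjusted p = 4.69e-12) and Urod 1.49-fold higher (1.37 to 1.63, adjusted p = 7.02e-19 in the same exact test). Cpox was 1.83-fold higher in replicate 1 (1.73 to 1.94, exact binomial adjusted p = 2.87e-104). Fech differed by 1.11-fold (1.02 to 1.22, exact binomial adjusted p = 0.0249). Hmox1 was 23.9-fold higher in replicate 2 when replicate 1 is set to 3 counts, and the lower 95% counting limit of its ratio was 18.9-fold. Alad (1.08-fold, exact binomial adjusted p = 0.120) and Ppox (1.03-fold, adjusted p = 0.475 in the same exact test) did not pass. The median difference over all genes tested was 1.36-fold, larger than those of Alad, Ppox and Fech and smaller than those of the other called members. Against the spread of all genes between the libraries (edgeR exact test at a common coefficient of variation of 0.759) 0 of the 8 members passed, as did 0 of 13616 genes. That coefficient was estimated from these same libraries, so the differences under test set the noise they were judged against. Hmox1 alone had an unadjusted p under 0.05 in that edgeR test (adjusted p = 0.231).

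Scaling to total counts or to the spike-ins moved the median gene by 0.21 and 0.63 on the log2 scale towards replicate 2. Of all called genes, 5523 were higher in replicate 2 and 5085 in replicate 1 with TMM, 7134 and 3610 with total counts, and 9974 and 1839 with the spike-ins (15 spike-ins with 10 or more counts in both libraries). Cpox remained higher in replicate 1 under each scaling, with log2 ratios of -0.87 by TMM, -0.67 by total counts and -0.25 by spike-ins. Under total counts or spike-ins Alad and Ppox also passed the exact binomial test as higher in replicate 2, at 0.31 and 0.24 or at 0.73 and 0.66.

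**Figure D2:**
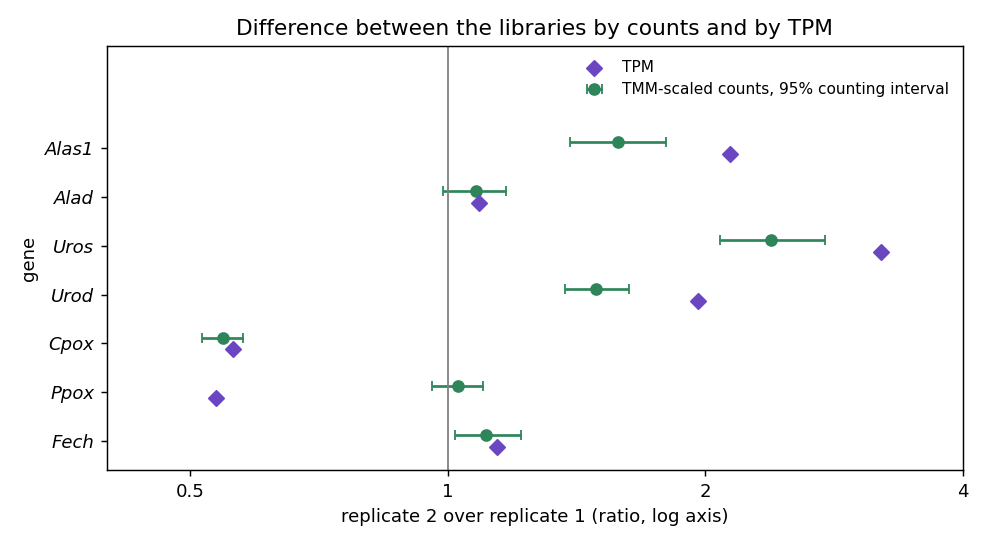
Ratio of replicate 2 to replicate 1 (horizontal, log axis) for the 7 detected members: circles are TMM-scaled counts with 95% counting intervals and diamonds are TPM. For Ppox the count ratio is 1.03 while TPM was 28.3 against 52.8, and for Cpox, Alad and Fech both measures lie close together.

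The gap between counts and TPM in Ppox came with a change in which of its transcripts took the reads. The mean effective length assigned to Ppox was 1429 bases in replicate 1 and 2802 in replicate 2, so similar counts gave unequal TPM. In replicate 1 the highest Ppox transcripts by TPM were Ppox-205 at 13.1 and Ppox-202 at 12.9, both short and annotated as retained introns. In replicate 2 Ppox-205 was at 0 and Ppox-207, a retained-intron transcript of 4411 bases, led with 11.5 TPM. The share of Ppox counts given to Ppox-207 was 34.4% and 61.9% (Fisher's exact test, adjusted p = 5.51e-54). Its 3′ end reaches into B4galt3, a galactosyltransferase gene on the opposite strand that overlaps Ppox by 907 bases and had 339 and 649 counts. Whether the counting used strand is not given in the sources used here, and the part of B4galt3 reads in Ppox-207 was not tested. The effective lengths of Cpox (3041 and 3024 bases) and Fech (2756 and 2739 bases), which have 1 listed transcript each, hardly moved.

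For part of the pathway genes much of the TPM lay in transcripts that are not annotated as protein-coding. Cpox and Fech, with 1 coding transcript each, had none there, and over the 7 detected members the median share in coding transcripts was 86.5% and 63.9%. Coding transcripts held 20.2% and 23.9% of the TPM of Ppox in replicates 1 and 2, 52.8% and 35.0% of that of Urod and 51.7% and 63.9% of that of Uros. For Alas1 the share was 86.5% in replicate 1 and 34.8% in replicate 2, and for Alad it was 91.6% and 86.8%. Among 7224 detected protein-coding genes with 2 or more transcripts the median share was 84.7% and 85.4%, against 52.8% and 35.0% for the 5 members with 2 or more transcripts. By mean share Ppox stood at percentile 5.95 of those genes and Urod at 16.7. Uros was at percentile 27.0, Alas1 at 29.2 and Alad at 59.3.

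Counted by coding transcripts alone, the order of the pathway was another one. Cpox and Fech have 1 listed transcript each, so their levels could not fall under this count. Cpox led with 43.9 ± 17.5 TPM, followed by Alad with 40.2 ± 0.891 and Urod with 25.2 ± 4.68. Fech, at 17.1 ± 1.63, then stood above Uros at 10.5 ± 8.87, Ppox at 8.71 ± 2.77 and Alas1 at 7.79 ± 0.834. Coding TPM of Alas1 was 8.38 in replicate 1 and 7.20 in replicate 2, while its whole TPM differed 2.14-fold. Urod had 21.9 and 28.5 coding TPM against 41.5 and 81.4 in all. Uros differed in both, with 4.24 and 16.8 coding TPM.

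**Figure D3:**
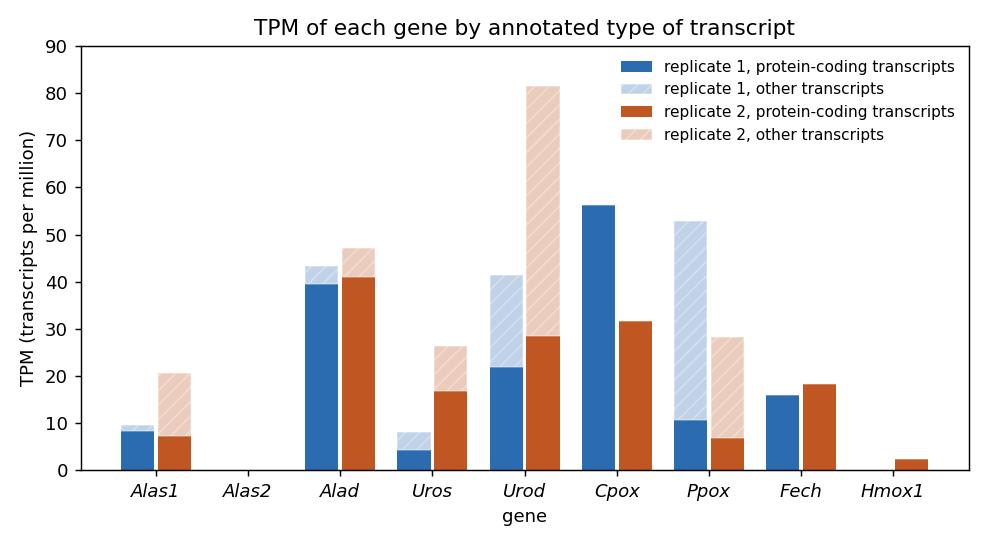
TPM of each gene (vertical axis, from 0) in replicate 1 and replicate 2, with solid bars for annotated protein-coding transcripts and hatched bars on top for all others. Solid parts of Alas1 are 8.38 and 7.20 TPM, while its hatched part is large in replicate 2, and most of Ppox is hatched in both libraries.

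The share of counts held by the transcript with the highest mean level differed between the libraries for 4 of the 5 members that could be tested (Fisher's exact test, adjusted over 7354 genes), where 77.5% of all genes tested passed. The highest transcript by TPM was another one in each library for Alas1, Uros and Ppox, and the same one for Alad and Urod. Alas1-201, the coding transcript that starts at 106247856, held 86.0% and 33.1% of Alas1 counts in replicates 1 and 2 (Fisher's exact test, adjusted p = 8.49e-64). In replicate 2 Alas1-206, a transcript without an annotated protein that starts 5020 bases downstream of the first Alas1 start, had 5.16 TPM beside 5.08 for Alas1-201. The longest first exon, that of Alas1-207, begins at 106248654 and holds the printed NRF1 word, and this transcript had 8.55 and 111 estimated counts, a difference not tested on its own. Alad-201 (87.6% and 81.0%) and Urod-201 (72.7% and 60.2%) led in both libraries and also passed, with Fisher's exact adjusted p-values of 6.18e-05 and 6.37e-09. The retained-intron transcript Uros-206 took 59.0% and 57.2% of Uros counts (Fisher's exact test, adjusted p = 0.700). Transcript counts are divisions of shared reads by the authors' quantifier, so these tests treat an estimate as a count.

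In replicate 2 alone, coding transcripts from starts far apart took reads in Uros. Uros-204 and Uros-206 start within 136 bases of each other near the upstream end of the gene and together made up all Uros TPM in replicate 1. Uros-209, a short coding transcript that starts 7456 bases below the first Uros start, and whose first exon holds the printed Uros word, had 0 counts in replicate 1 and 28.0 in replicate 2. There it reached 6.48 TPM, or 24.7% of Uros TPM, with deposited credibility bounds of 3.16 and 8.41 TPM. It is only 371 bases long, and its 28.0 counts stand beside 689 for the whole gene. Its TPM is part of the 16.8 coding TPM of Uros in replicate 2. The 3 listed Alad transcripts start within 37 bases of each other, and all Alas2 starts had 0 counts.

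The genes around the pathway were broadly present. All 18 genes of precursor supply and mitochondrial transport were detected in both libraries, with medians of 21.4 and 20.9 TPM against 13.2 and 13.5 for detected protein-coding genes. Tmem14c, a carrier of a late ring intermediate, led with 90.9 and 102 TPM. Slc25a39 (102 and 58.5) and Ogdh (56.7 and 61.2), an enzyme of the citric acid cycle that makes succinyl-CoA, followed. Slc25a38, the glycine carrier of erythroid cells, stood at 25.6 and 16.3 TPM, and Abcb10, an inner membrane transporter needed in red cell precursors, at 9.61 and 11.0. The iron carriers Slc25a37 (mitoferrin of red cell precursors) and Slc25a28 (its general counterpart) stood at 23.9 and 18.4 and at 20.1 and 13.2 TPM. The erythroid form of the iron carrier was read where the erythroid form of the first enzyme was not. Between the libraries 6 of these 18 genes were called higher in replicate 2 and 5 in replicate 1, beside 77.9% called of all genes tested, with a near-even split of 5523 and 5085.

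All 13 matched genes of iron-sulphur cluster assembly, which ferrochelatase needs, were detected, with medians of 30.9 and 25.1 TPM. Hspa9 (108 and 77.9 TPM), Glrx5 (84.1 and 96.0) and Isca2 (35.8 and 46.1) were the highest. Of the 13 genes 3 were called higher in replicate 2 and 8 in replicate 1, beside the same 77.9%, and whether that split differs from that of all genes was not tested. All 8 genes of haem use in the respiratory chain were detected, with Cox4i1 at 333 and 361 TPM, Cyc1 at 64.0 and 50.3 and Uqcrfs1 at 59.6 and 53.5. Of these 8 genes 1 was called higher in replicate 2 and 4 in replicate 1 (77.9% called over all genes). Of the 11 other haem proteins and partners of myeloid cells 8 were detected, led by Mpo with 386 TPM in each library, Cyb5a with 34.1 and 80.9 and the catalase gene Cat with 53.3 and 38.0, while Epx and Ptgs2 had 0 counts. Of the 9 tested here 4 were called higher in replicate 2 and 2 in replicate 1 (77.9% over all genes).

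Downstream of haem, 9 of 11 genes of breakdown, import, export and iron storage were detected. The ferritin genes Fth1 (501 and 526 TPM) and Ftl1 (329 and 519) and the biliverdin reductase gene Blvrb (136 and 120.3) were the highest. Hmox2, the haem oxygenase made without induction, stood at 17.7 and 13.0 TPM, above Hmox1 in both libraries. Flvcr2 had 0 counts in both. Of 10 genes tested 2 were called higher in replicate 2 and 6 in replicate 1, near the 77.9% called over all genes. Among 15 regulators 14 were detected, and the medians over all 15 were 11.7 and 11.5 TPM. Of the 14 tested 3 were called higher in replicate 2 and 5 in replicate 1 (77.9% called over all genes). The erythroid factors Gata1 (53.9 and 52.6 TPM) and Klf1 (47.0 and 37.1) were read, as was Nrf1 (28.2 and 31.6). Nfe2l2, an activator of Hmox1, stood at 46.8 and 42.7 TPM and Bach1, its haem-sensing repressor, at 10.2 and 11.1. Ppargc1a, a coactivator of Alas1 in liver, had 0 counts in both libraries.

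Markers of other cells were set beside the members. Of 15 matched genes of maturing red cells 12 were detected, with summed levels of 349 TPM in replicate 1 and 304 in replicate 2. Ermap (113 and 61.8 TPM), Tfrc (50.6 and 61.8) and Hba-a2 (3.37 and 55.3) were the highest, Slc4a1 was at 0 counts and at 15, and globin reads are hard to divide between near-identical copies. All 15 were tested, and 5 were called higher in replicate 2 and 7 in replicate 1, near the 77.9% called over all genes. Of 14 macrophage genes, a cell type rich in Hmox1, 4 were detected, with summed levels of 52.7 and 45.0 TPM. The highest were Lyz2 (14.8 and 24.7 TPM), Slc40a1 (14.1 and 10.9) and Csf1r (10.8 and 4.63). C1qa, C1qb, Mertk, Spic and Siglec1 had 0 counts in both libraries. In replicate 1 alone C1qc had 33 counts and Adgre1 had 1, and in replicate 2 alone, the library with Hmox1 reads, Mrc1 had 26 and Vcam1 had 2. Of the 7 genes tested 2 were called higher in replicate 2 and 5 in replicate 1, beside 77.9% of all genes called, and the part of macrophage RNA in the Hmox1 reads was not tested.

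**Figure D4:**
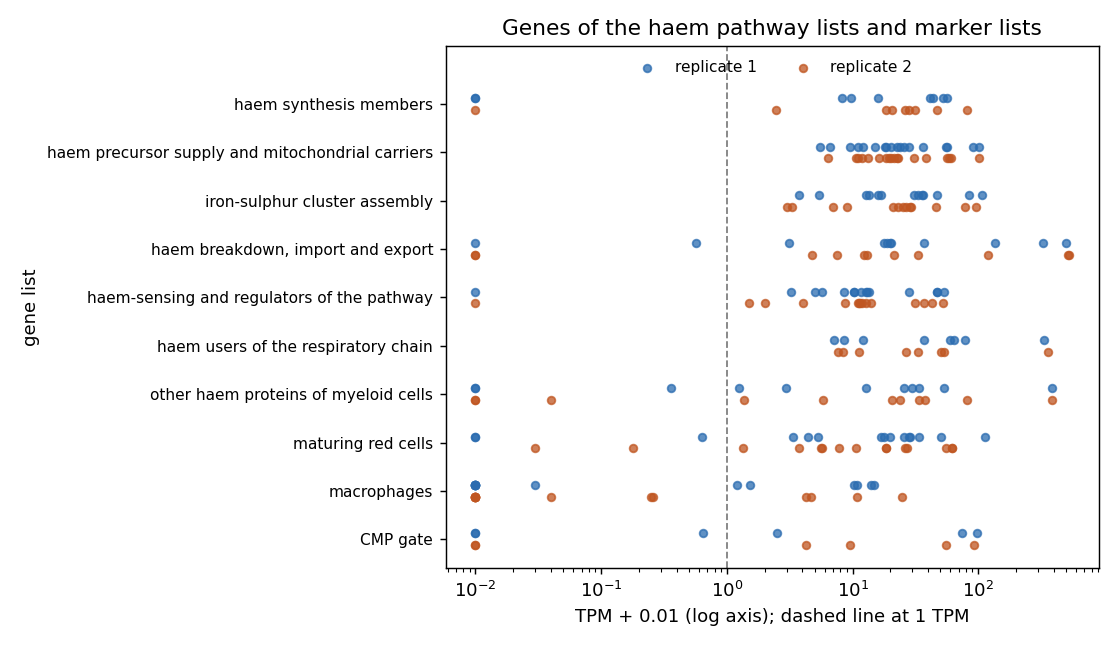
TPM + 0.01 (horizontal, log axis) of every matched gene in each list, replicate 1 above and replicate 2 below, with a dashed line at 1 TPM. The synthesis set lies between 8.20 and 81.4 TPM for its 7 detected genes, and the macrophage list has most of its points left of the line.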

How the data were processed

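Total RNA-seq of 2 pools of CMP was read from 1 table of genes and 1 of transcripts for each library. Per the file headers and the notes deposited with them, the authors aligned reads to the mm10 transcriptome with GENCODE annotation M4. The deposited expected counts are estimates that divide shared reads among entries, with RSEM's columns. Which aligner and quantifier were run, and whether strand was used, is not given in the sources used here. TPM values, as deposited, are scaled to 1000000 over all entries, tRNA and spike-ins included, and the deposited percent values give each transcript's share of its gene's TPM. The deposited credibility bounds have no stated level.

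Names came from GENCODE M21 of that build through unversioned identifiers, which named 42462 of 43346 genes. Expected counts were rounded, genes annotated as ribosomal RNA were left out, and libraries were scaled by TMM (edgeR 4.0.16). The exact binomial test took genes reaching 10 counts, and Fisher's exact test took genes listed with at least 2 transcripts and reaching 50 counts on both sides, both at an adjusted p of 0.05 (scipy 1.17.1). The quasi-likelihood test was not used, since 1 library on each side leaves no residual degrees of freedom. The exact binomial and Fisher tests were checked on simulated data with counting noise alone. That check does not cover the wider spread between the real libraries. Alternatives were other TPM thresholds, posterior mean TPM, TPM over nuclear protein-coding genes, DESeq2 1.42.0 size factors, total counts, spike-ins, other count minimums, an edgeR exact test at the common dispersion, coding transcripts alone and leaving out each library. Coding transcripts alone for levels, detection and order was chosen after seeing the data. The members and lists were chosen with earlier results of these data known. Start windows of members on the chromosome of Fech were left out before the search, so the absence of Fech there is not a failed match. Named genes are the members, the 3 highest genes and the genes at 0 counts in each list, and fixed carriers and regulators. A further list is not reported here. Fcgr3, Adgre1, C1qc, Mrc1, Vcam1, Slc4a1, Hmox2, Apex2 and B4galt3 were chosen after their values were seen.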

Additional observations from a re-analysis of the deposited data

How the results depend on the processing

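Members detected numbered 7 in the main reading and between 7 and 8 when either library was left out, and each other threshold, estimate or choice of transcripts kept the count within 1.5 times. The exact binomial calls among members fell from 6 to 0 under edgeR's exact test at the common dispersion, and were 8 under total counts and spike-ins. The edgeR test is built on the spread over all genes between these same libraries instead of counting noise. At a threshold of 5 TPM the macrophage list had 2 detected genes in place of 4. Of the other summary results, 71 recomputed values were within 1.5 times of the main ones. Of the members' levels, 12 recomputed means moved by more than 1 SD and 33 did not. Leaving out a library always moves a mean of 2 values by less than 1 SD. Those recomputed means are among the 33 and could not have counted as moved. TPM over nuclear protein-coding genes raised all 8 members with reads, such as Alas1 from 15.2 to 39.2, Urod from 61.5 to 159 and Cpox from 43.9 to 115. The posterior mean put Alas2 at 0.305 TPM, and coding transcripts alone moved Alad, Urod and Ppox. The overlap of ranges needs both libraries, so it has no value with a library left out. No paired analysis was possible because both libraries belong to 1 group. At these depths 0 counts bound a level to counting error only, and the pool of 100 cells limits every value.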
